A study of Arabidopsis thaliana with 15 samples.

Results

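The nitrate transport and reduction genes of Arabidopsis thaliana described here are 10 loci picked by name from a table of 24618 genes. No measured value was part of that rule, but earlier results of these data were known when the loci were chosen. The 10 loci are the nitrate transporter genes NRT1.1, NRT1.5, NRT1.8, NRT2.1, NRT2.2 and NRT2.4, the transporter partner gene NRT3.1, the nitrate reductase genes NIA1 and NIA2, and the nitrite reductase gene NIR. Bulk RNA-seq of polyadenylated RNA gave their transcript levels in 15 libraries of ecotype Col-0, in 5 groups of 3 lettered replicates. Mock (untreated), salt (NaCl, 150 mM) and flg22 (a flagellin peptide that plants perceive, 250 nM according to the labels and a higher dose in the study's methods) formed one set, and mannitol (300 mM) and its own untreated mannitol control formed another. Seedlings were 6 days old and, according to the methods, each sample pooled roots harvested 3 hours after treatment, whereas the labels name the tissue as whole seedling. The imaging methods of the study describe liquid medium for salt and flg22 and plates for mannitol. No source states that replicates came from separately grown batches, so p-values measure only the spread between these samples.

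Nitrate is both the main nitrogen source of most land plants and a signal. Root cells import it through high-affinity NRT2 carriers, which need the partner protein NRT3.1 (also called NAR2.1) to act at the plasma membrane, and through NRT1.1, which transports nitrate over a wide range of concentrations and also acts as its sensor. NRT1.5 loads nitrate into the xylem for the shoot and NRT1.8 takes it back out of the xylem, and a shift between them under stress is known to keep more nitrate in the root. Nitrate that stays in the cell is reduced to nitrite in the cytosol by the nitrate reductases NIA1 and NIA2, and NIR reduces nitrite to ammonium in plastids.

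The stretches before the transcription start are shown for the uptake gene NRT2.1, which fell furthest, for its barely detected relatives NRT2.2 and NRT2.4, for the xylem retrieval gene NRT1.8, which moved in opposite directions in salt and mannitol, and for the reductase gene NIA2, which rose in both. Each line is the 250 bases upstream of the RefSeq start site in TAIR10.1, read 5′ to 3′ on the gene's strand. Capitals mark letters of the motifs ACGTG (the core of the abscisic acid response element), TTGAC (the core of the W-box bound by WRKY factors) and GAATC (the core bound by NIGT1 repressors of nitrate genes), searched on both strands. The windows lie at chr1:2523773-2524022 (plus strand) for NRT2.1, chr1:2529121-2529370 (minus) for NRT2.2, chr5:24444115-24444364 (plus) for NRT2.4, chr4:11519806-11520055 (minus) for NRT1.8 and chr1:14158202-14158451 (plus) for NIA2.
NRT2.1: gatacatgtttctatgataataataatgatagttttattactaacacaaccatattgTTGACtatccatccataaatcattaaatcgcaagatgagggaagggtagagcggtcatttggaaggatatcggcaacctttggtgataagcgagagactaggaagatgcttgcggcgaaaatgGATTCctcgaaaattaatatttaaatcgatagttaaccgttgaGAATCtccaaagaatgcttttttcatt
NRT2.2: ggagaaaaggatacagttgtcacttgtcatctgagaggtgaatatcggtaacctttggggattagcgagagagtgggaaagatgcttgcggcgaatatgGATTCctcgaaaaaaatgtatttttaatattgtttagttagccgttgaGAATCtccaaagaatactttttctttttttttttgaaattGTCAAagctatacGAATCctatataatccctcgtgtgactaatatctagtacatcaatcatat
NRT2.4: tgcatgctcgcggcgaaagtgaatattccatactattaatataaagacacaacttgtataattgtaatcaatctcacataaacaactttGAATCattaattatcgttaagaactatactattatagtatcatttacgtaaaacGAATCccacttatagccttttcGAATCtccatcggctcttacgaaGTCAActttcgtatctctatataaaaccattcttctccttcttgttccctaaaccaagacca
NRT1.8: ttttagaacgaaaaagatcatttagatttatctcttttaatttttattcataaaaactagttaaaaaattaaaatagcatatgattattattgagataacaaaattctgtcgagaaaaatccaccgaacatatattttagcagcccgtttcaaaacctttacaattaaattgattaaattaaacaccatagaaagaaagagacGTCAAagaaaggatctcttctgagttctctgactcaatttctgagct
NIA2: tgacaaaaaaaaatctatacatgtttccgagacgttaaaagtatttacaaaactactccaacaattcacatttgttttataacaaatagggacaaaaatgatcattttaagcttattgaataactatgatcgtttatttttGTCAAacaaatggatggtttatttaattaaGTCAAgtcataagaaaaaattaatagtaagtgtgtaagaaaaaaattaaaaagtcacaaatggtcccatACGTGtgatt

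All 10 genes matched RefSeq. NRT2.1 held 2 GAATC motifs, first letters at -70 and -27 from the start site, and 1 TTGAC motif at -193. NRT2.2 and NRT2.4 each held 3 GAATC motifs and 1 TTGAC motif. At least 2 GAATC motifs occurred in 10.3% of the 27443 protein-coding promoters of the same length, and at least 1 in 38.8%. NRT1.8 held 1 TTGAC motif at -47. NIA2 held 2 TTGAC motifs and the only ACGTG motif among the 10 genes, at -10, a motif present in 22.9% of all promoters, and TTGAC was present in 44.9%. The nitrate-responsive element of nitrite reductase genes, searched as CTT followed after 10 bases of any kind by AAG, occurred in 8.02% of promoters and in 0 of these 10. A match is a stretch of letters and not a measured site.

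Libraries held between 6094503 and 13943645 counts, where 3 counts corresponded to between 0.205 and 0.470 CPM (counts scaled to the effective size of each library with TMM factors). Mock replicate B stood furthest from its group, with 382 of 19403 genes over 2-fold away from both other mock libraries against 33 to 265 in the other 14 libraries, and it is named wherever it decides a value. The summed level of 11 photosynthesis genes was 168 to 244 CPM in mock, 71.8 to 169 in salt and 110 to 372 in flg22. It was 178 to 200 CPM in the mannitol control and 160 to 205 CPM in mannitol. In salt 5 of the 11 were lower, 45.5% against 19.4% of all genes, and their part in the salt responses was not tested. Of these genes 1 was at 0 throughout the mannitol control and 2 throughout mannitol. None of 18 root markers (epidermis and hair, ground tissue and endodermis, stele) was at 0 in any group. In bulk samples, fewer cells of a type and less RNA per cell cannot be told apart.

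Salt changed most of the measured nitrate genes within 3 hours. The uptake genes NRT2.1 and NRT3.1 and both xylem genes fell, whereas NRT1.1 and NIA2 rose. Of the 10 members, 8 passed the filter on low counts, and NRT2.2 and NRT2.4 passed in no comparison. NRT2.1 passed in mannitol only through its control libraries, and in salt only with the help of the mock libraries, in which it was high. Of the 10, 2 were higher and 4 lower in salt than in mock at an adjusted p under 0.05 (edgeR's quasi-likelihood test, Benjamini-Hochberg over all genes), where 41.9% of all 18484 genes tested changed, 22.5% up and 19.4% down. With a log2 fold change of at least 1 as well, 5 members passed, against 17.4% of all genes. In mannitol 3 members were higher and 4 lower than in the mannitol control, where 52.1% of 18939 genes changed, 26% up and 26% down. With the fold limit 3 members passed in mannitol, against 16.4% of all genes. In flg22 0 members changed, where 3.68% of 18230 genes did. The median log2 fold change of the 8 tested members was -0.78 in salt, -0.10 in mannitol and 0.06 in flg22, against -0.01, -0.02 and -0.01 over all genes tested.

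**Figure D1:**
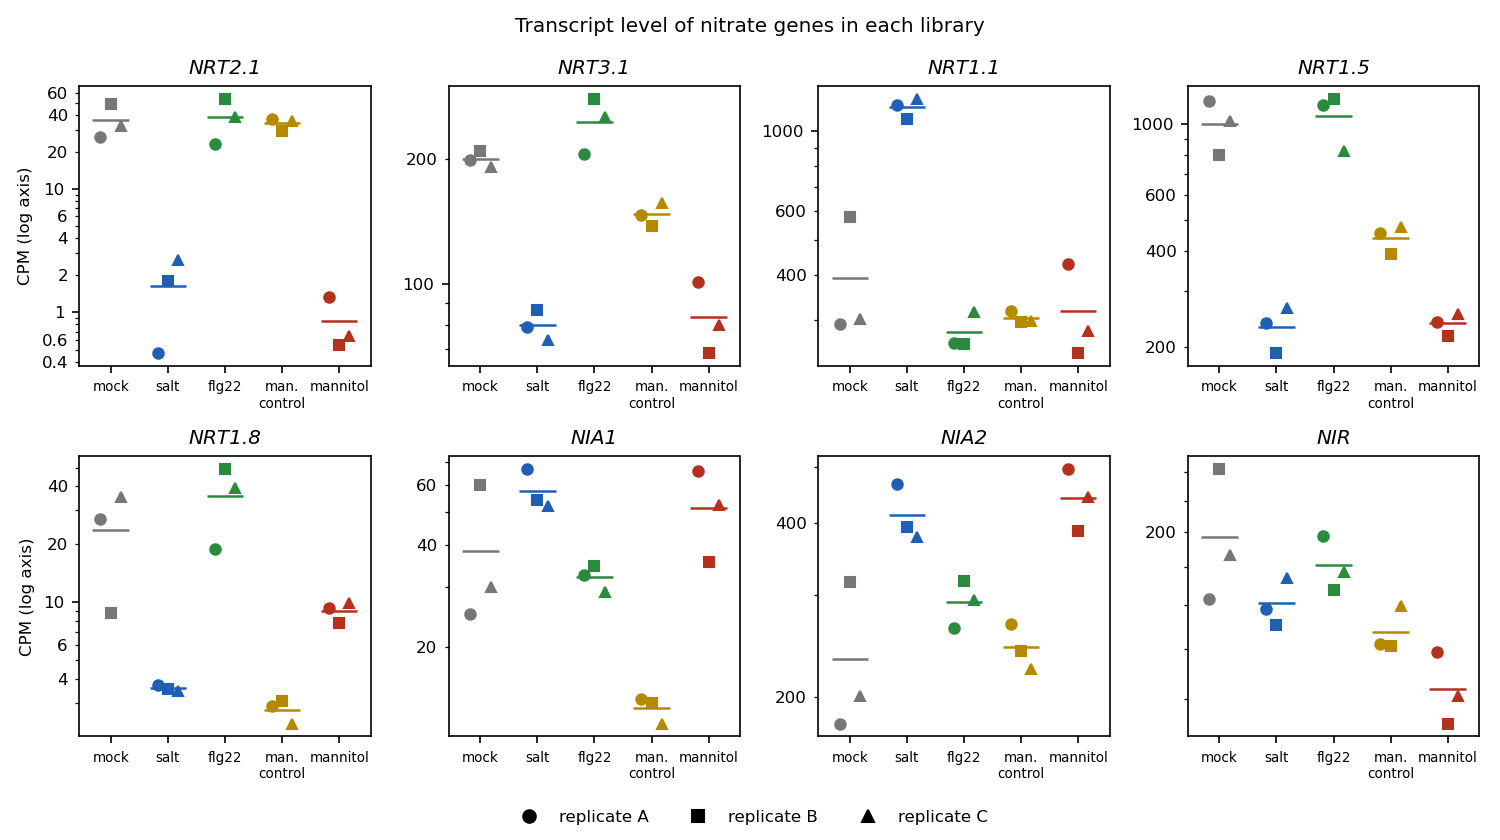
Level of each of the 8 tested nitrate genes in CPM (log axis) in the 5 groups, with 1 point per library, marker shape for replicate A, B or C and a bar at the group mean. NRT2.1 lies at 0.468 to 2.65 CPM in salt and 0.544 to 1.34 CPM in mannitol, below all untreated libraries, and mock replicate B (square) lies apart from A and C for NRT1.1, NRT1.8, NIA1 and NIA2.

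NRT2.1 (AT1G08090, chromosome 1, 2524023 to 2526322, plus strand, 3 exons) encodes the main high-affinity nitrate importer of roots, and it fell further than any other member in both osmotic treatments. Its level was 26.2, 49.1 and 32.6 CPM in mock replicates A, B and C and 0.468, 1.78 and 2.65 CPM in salt. The salt libraries held 4, 17 and 23 counts, all far below mock. The level fell by 4.41 ± 0.45 on the log2 scale (SE, n = 3 against 3, adjusted p = 0.000333), which is 21.2-fold lower. In the mannitol control it was 37.0, 29.7 and 35.8 CPM, and in mannitol 1.34, 0.544 and 0.649 CPM. Every mannitol library held 13 counts or fewer, and no control library fewer than 436. In mannitol NRT2.1 fell by 5.37 ± 0.22 on the log2 scale, or 41.3-fold. It passed the filter on low counts there only through its control libraries, so the size of the fall rests on few mannitol counts. In flg22 NRT2.1 was measured at 23.2, 53.8 and 37.9 CPM, a range that covers that of mock (log2 fold change 0.07 ± 0.38, adjusted p = 0.949).

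NRT2.2 (AT1G08100, chromosome 1, 2527170 to 2529120, minus strand) is the tandem copy of NRT2.1, set tail to tail 847 bases away with 0 genes between them. It had 1 count in all 15 libraries, in mannitol control replicate A, and was not tested. The coding sequences of both genes are 89.4% identical, and 3.53% of the 100-base windows of NRT2.1 and 4.41% of those of NRT2.2 occur in both, so that a small share of reads could not be assigned to either gene. NRT2.4 (AT5G60770, chromosome 5, 24444365 to 24447127, plus strand) encodes a very high-affinity importer known to be induced by nitrogen starvation. It had 0 to 3 counts per library and 10 in total, at or under the 3-count floor everywhere, and no difference was detectable at this depth.

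NRT3.1 (AT5G50200, chromosome 5, 20436180 to 20437815, plus strand) encodes the NRT2 partner protein, and it fell in both osmotic treatments with little spread. Mock replicates A, B and C had 199, 209 and 192 CPM and salt replicates 79.0, 86.5 and 73.4 CPM. The salt group lay wholly below mock, a decrease of 1.29 ± 0.09 on the log2 scale (adjusted p = 6.07e-06), or 2.45-fold. In the mannitol control NRT3.1 had 147, 138 and 157 CPM, against 101, 68.3 and 80.0 CPM in mannitol. These groups did not overlap either, and the level fell by 0.83 ± 0.12 on the log2 scale (adjusted p = 7.31e-05). In flg22 it had 206, 279 and 252 CPM, of which the lowest lay within the range of mock (0.27 ± 0.10, adjusted p = 0.192), and it was the only member with an unadjusted p under 0.05 there (0.0233).

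The summed level of the root hair and epidermis markers moved in the same direction as these uptake genes. It was 201 to 242 CPM in mock and 97.0 to 180 CPM in salt. In salt 2 of 6 markers were lower and 0 higher, 33.3% called against 41.9% of all genes. EXPA7 did not move there, with means of 56.9 CPM in mock and 57.2 CPM in salt. The sum was 160 to 215 CPM in the mannitol control and 82.2 to 86.1 CPM in mannitol. In mannitol 4 of 6 markers were lower, 66.7% against 52.1% of all genes. The part of these cells in the fall of NRT2.1 and NRT3.1 was not tested.

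NRT1.1 (AT1G12110, chromosome 1, 4105223 to 4109601, plus strand, 5 exons), the transporter and nitrate sensor, rose in salt and not in mannitol. It was measured at 293.7, 579.8 and 302.9 CPM in mock and at 1183, 1078 and 1229 CPM in salt. Mock replicate B was the highest of its group, and all salt libraries still lay above it. The rise was 1.602 ± 0.28 on the log2 scale (adjusted p = 0.00409), 3.03-fold, and without mock replicate B it was 1.996 (adjusted p = 2.07e-06). Mannitol control libraries had 317.6, 296.4 and 298.1 CPM, and mannitol libraries 430.6, 243.5 and 280.2 CPM. Mannitol replicate A lay above all controls and the other mannitol libraries below all of them, giving 0.06 ± 0.19 (adjusted p = 0.820). Without mannitol replicate A the difference was -0.21 (adjusted p = 0.0117). In flg22 the level was 259.4, 258.8 and 315.6 CPM (-0.52 ± 0.31, adjusted p = 0.472).

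NRT1.5 (AT1G32450, chromosome 1, 11715147 to 11719988, minus strand, 6 exons), which loads nitrate into the xylem, fell in both osmotic treatments. Its levels were 1183, 800 and 1022 CPM in mock and 238, 192 and 265 CPM in salt. No salt library came near the lowest mock library. NRT1.5 fell by 2.08 ± 0.17 on the log2 scale (adjusted p = 2.12e-05), which is 4.23-fold. In the mannitol control NRT1.5 was at 458, 391 and 476 CPM and in mannitol at 241, 218 and 254 CPM. The groups were separate, with a decrease of 0.90 ± 0.09 on the log2 scale (adjusted p = 2.06e-06), or 1.86-fold. In flg22 the libraries had 1150, 1202 and 824 CPM, nearly the range of mock (0.05 ± 0.20, adjusted p = 0.926). NRT1.5 shares 16 exonic bases, 0.722% of its transcript, with AT1G32440 on the opposite strand, and the counting was not stranded. That neighbour rose by 0.94 in salt and 0.73 in mannitol on the log2 scale, against the direction of NRT1.5.

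NRT1.8 (AT4G21680, chromosome 4, 11517353 to 11519805, minus strand, 4 exons), which retrieves nitrate from the xylem, fell in salt and rose in mannitol. In mock it was measured at 26.9, 8.83 and 35.1 CPM, and in salt at 3.74, 3.56 and 3.46 CPM. The salt libraries were close to each other, while mock was widely spread with replicate B lowest. NRT1.8 fell by 2.71 ± 0.53 on the log2 scale in salt (adjusted p = 0.00856), or 6.55-fold. The change was -3.09 without mock replicate B (adjusted p = 2.18e-06), and without salt replicate C the adjusted p was 0.0615. The mannitol control had 2.91, 3.07 and 2.35 CPM and mannitol 9.37, 7.80 and 9.97 CPM. The rise was clear of the controls in every library, at 1.697 ± 0.19 (adjusted p = 6.53e-06), or 3.24-fold. It started from a control level near that of salt-treated roots, while mock lay higher. In flg22 NRT1.8 had 19.0, 49.1 and 39.4 CPM, within and above the mock range (0.54 ± 0.60, adjusted p = 0.731). It shares 44 exonic bases, 2.01% of its transcript, with AT4G21670, whose own log2 fold change was -0.01 in salt (adjusted p = 0.919) and -0.14 in mannitol (adjusted p = 0.220).

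Both xylem genes act in the stele, whose 8 markers did not move as one. In salt 4 were higher and 3 lower, 87.5% called against 41.9% of all genes. In mannitol 2 were higher and 3 lower, 62.5% against 52.1% of all genes. Their summed level was 650 to 826 CPM in mock, 507 to 563 CPM in salt, 614 to 658 CPM in the mannitol control and 486 to 525 CPM in mannitol. PHO1, the only pericycle marker of the 8, loads phosphate into the xylem and held much of these sums. Its level was 369 to 541 CPM in mock, 152 to 174 CPM in salt, 303 to 346 CPM in the mannitol control and 163 to 196 CPM in mannitol. Without PHO1, and so without a pericycle marker, the summed level was not lower under either treatment. The other 7 markers together held 355 to 401 CPM under salt, against 281 to 285 CPM for mock. Under mannitol they held 317 to 329 CPM, against 310 to 317 CPM for its control. Single markers among these 7 still moved both ways. Mean SHR fell from 40.9 to 24.5 CPM under salt and from 38.2 to 19.5 CPM under mannitol, where AHK4 fell from 107 to 63.8 CPM. Mean SUC2 rose from 54.3 to 115 CPM under salt and from 53.8 to 128 CPM under mannitol. The 4 markers of ground tissue and endodermis summed to 240 to 257 CPM in mock and 318 to 404 CPM in salt. In salt 2 were higher and 1 lower, 75% called against 41.9% of all genes. CASP1 went from a mean of 163 to 281 CPM there, and SCR from 63.7 to 49.1 CPM. The sum was 159 to 164 CPM in the mannitol control and 166 to 213 CPM in mannitol. In mannitol 2 were higher and 2 lower, 100% called against 52.1% of all genes. The part of these tissues in the changes of NRT1.5 and NRT1.8 was not tested.

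**Figure D2:**
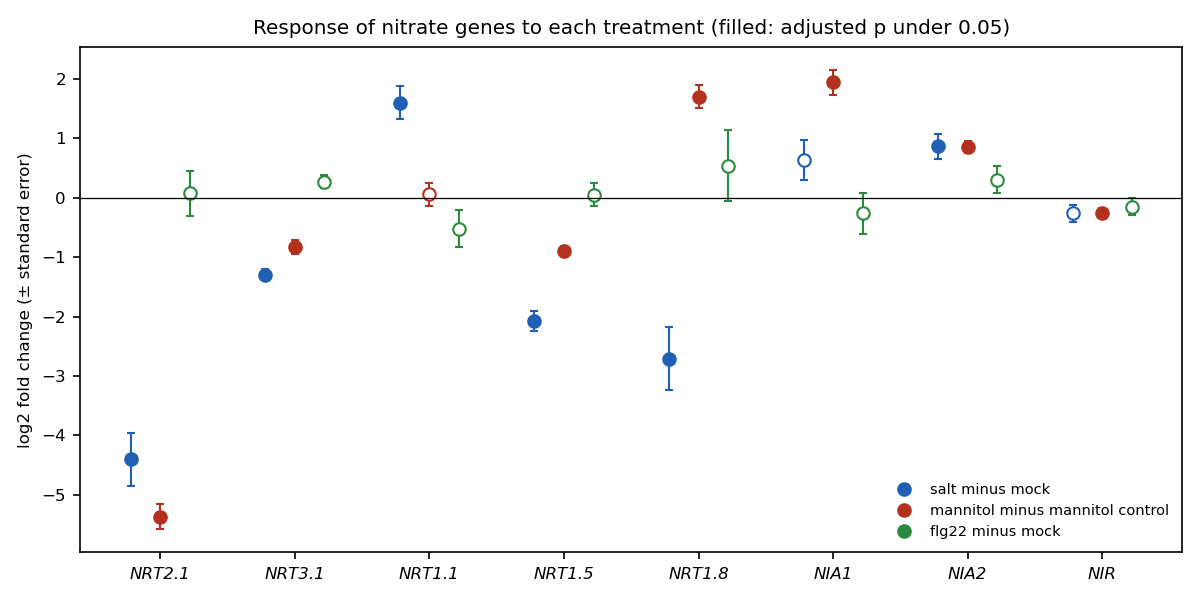
Log2 fold change of each of the 8 tested genes in salt and flg22 (against mock) and in mannitol (against the mannitol control), with bars for the standard error and filled points for an adjusted p under 0.05. NRT2.1 lies lowest in salt and mannitol (-4.41 and -5.37), NRT1.8 lies at -2.71 in salt and 1.697 in mannitol, and no flg22 point is filled.

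NIA2 (AT1G37130, chromosome 1, 14158452 to 14161938, plus strand), the nitrate reductase gene that accounts for most of the enzyme's activity in seedlings, rose in both osmotic treatments. It had 180, 317 and 201 CPM in mock and 468, 393 and 378 CPM in salt. All salt libraries lay above mock, with replicate B the closest mock library. The rise was 0.86 ± 0.22 on the log2 scale (adjusted p = 0.0154), 1.82-fold, and it was 1.15 without mock replicate B (adjusted p = 0.000105). The adjusted p was 0.0665 without salt replicate A and 0.0629 without salt replicate C. In the mannitol control NIA2 was at 268, 241 and 223 CPM and in mannitol at 496, 387 and 445 CPM. The groups were well apart, and the rise was 0.86 ± 0.10 (adjusted p = 5.63e-06). In flg22 NIA2 had 263, 318 and 294 CPM (0.31 ± 0.22, adjusted p = 0.565), and without mock replicate B the difference was 0.59 (adjusted p = 0.00624).

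NIA1 (AT1G77760, chromosome 1, 29235721 to 29239484, minus strand), the second nitrate reductase gene, rose in mannitol. Control libraries had 14.2, 13.7 and 11.96 CPM and mannitol libraries 66.1, 35.6 and 52.4 CPM. Every mannitol library stood well above the narrow control range, by 1.94 ± 0.21 on the log2 scale (adjusted p = 5.16e-05), or 3.85-fold. In mock NIA1 was measured at 25.1, 59.8 and 30.1 CPM, and in salt at 66.7, 54.2 and 52.1 CPM. Mock replicate B lay inside the salt range, and the difference of 0.63 ± 0.33 did not pass the test (adjusted p = 0.181). Without that library it was 1.09 (adjusted p = 0.000377), so the call for NIA1 in salt rests on whether it is kept. In flg22 the level was 32.7, 34.6 and 29.1 CPM (-0.26 ± 0.35, adjusted p = 0.770).

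The coding sequences of NIA1 and NIA2 are 74.1% identical and share no 100-base window, so their counts can be told apart. NIA1 made up 5.02%, 5.39% and 5.08% of the summed NIA1 and NIA2 counts in the mannitol control and 11.8%, 8.43% and 10.5% in mannitol. The exact 95% binomial intervals (Clopper-Pearson, counting error only) reached at most 6.16% in the control and started at 7.65% or above in mannitol. In mock the share was 12.2%, 15.9% and 13.0%, in salt 12.5%, 12.1% and 12.1%, and in flg22 11.1%, 9.82% and 8.99%. The salt shares thus lay within or just under the mock range, and the shares were not tested.

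NIR (AT2G15620, chromosome 2, 6810395 to 6812941, plus strand), the single nitrite reductase gene that acts after NIA1 and NIA2, changed least among the tested members in the osmotic treatments apart from NRT1.1 in mannitol. It was at 163, 242 and 186 CPM in mock and 158, 150 and 174 CPM in salt. The groups overlapped, with a difference of -0.26 ± 0.14 (adjusted p = 0.166). In the mannitol control it was at 142, 141 and 159 CPM and in mannitol at 139, 111 and 121 CPM. The groups were separate by a narrow margin, with a decrease of 0.26 ± 0.09 on the log2 scale (adjusted p = 0.0234). This call was lost without mannitol replicate B (adjusted p = 0.100), without mannitol replicate C (0.0559), without mannitol control replicate C (0.108) and in a single fit of all 15 libraries (0.0959). In flg22 NIR had 198, 167 and 177 CPM (-0.15 ± 0.15, adjusted p = 0.671).

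Treated and control libraries did not overlap for 6 members in salt, where 54.6% of genes did not overlap, for 7 in mannitol (60.7%) and for 0 in flg22 (24.3%). DESeq2's Wald test also called 0 members in flg22, and at an unadjusted p under 0.05 edgeR gave 1, NRT3.1.

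Whether a gene responded differently to salt and to mannitol was tested as the difference of both responses in a fit of 12 libraries. Of the 8 members 3 differed, where 19.5% of 19363 genes did. NRT1.1 responded more positively to salt, by 1.54 ± 0.39 on the log2 scale (adjusted p = 0.0205). NRT1.5 fell further in salt, a difference of -1.19 ± 0.20 (adjusted p = 0.00104), and NRT1.8 fell in salt but rose in mannitol, a difference of -4.41 ± 0.58 (adjusted p = 0.000371). The difference for NRT2.1 was 0.96 ± 0.68 (adjusted p = 0.384), for NRT3.1 -0.47 ± 0.16 (0.0542), for NIA1 -1.31 ± 0.45 (0.0717), for NIA2 0.00 ± 0.26 (0.999) and for NIR -0.01 ± 0.18 (0.988). The call for NRT1.1 was lost without salt replicate C (adjusted p = 0.0580) or mannitol replicate C (0.0560). Treatment, culture medium and control group differ together between these responses and cannot be told apart.

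Levels of the 8 tested genes were compared per kilobase of transcript, with NRT2.2 and NRT2.4 left out. In mock NRT1.5 was highest, at 452 ± 86.8 CPM per kilobase (SD, n = 3), above NRT3.1 (182 ± 7.79) and NRT1.1 (178 ± 73.8). The means of NRT3.1 and NRT1.1 did not differ beyond their spread, which for NRT1.1 rests on mock replicate B. NRT1.1 lay above NRT3.1 in that library and below it in replicates A and C. NIR (89.95 ± 18.6) and NIA2 (72.5 ± 23.0) followed with overlapping ranges, although NIR lay above NIA2 within each mock library. NRT2.1 (17.0 ± 5.61), NIA1 (12.1 ± 5.95) and NRT1.8 (10.8 ± 6.15) were lowest and within each other's spread, although NRT2.1 lay above NIA1 within each mock library. In salt the order was led by NRT1.1, at 528 ± 35.1 CPM per kilobase, before NIA2 (129 ± 15.03) and NRT1.5 (105 ± 16.7), and NRT2.1 was last at 0.773. The mannitol control kept NRT1.5 first (199 ± 20.2), before NRT1.1 (138 ± 5.34) and NRT3.1 (134 ± 8.43). In mannitol NRT1.1 (144 ± 45.0), NIA2 (138 ± 17.0) and NRT1.5 (107 ± 8.33) were highest and NRT2.1 lowest (0.400). Under flg22 NRT1.5 (478) and NRT3.1 (224) led as in mock.

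**Figure D3:**
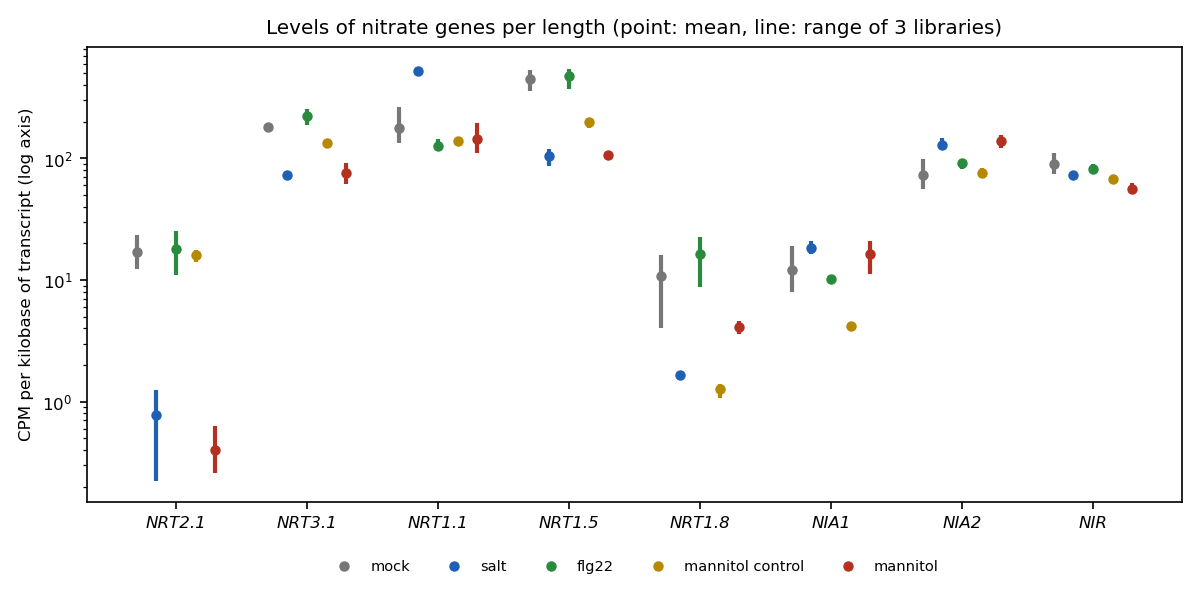
Level of each tested gene in CPM per kilobase of its longest transcript (log axis) in the 5 groups, with a point for the mean and a line for the range of 3 libraries. NRT1.5 leads in mock, flg22 and the mannitol control (452, 478 and 199), and NRT1.1 leads in salt (528) and, with an overlapping NIA2, in mannitol (144 and 138).

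The other genes of nitrogen uptake, assimilation and regulation were taken from a list of 81, made with earlier results of these data known. Of the listed genes 79 were in the table, and NRT3.2 and AMT1;1 were not analysed here. In salt 18 were higher and 25 lower of 71 tested, 60.6% against 41.9% of all genes. In mannitol 23 were higher and 27 lower of 71, 70.4% against 52.1%. In flg22 5 were higher and 0 lower of 70, 7.14% against 3.68%, and the response differed between salt and mannitol for 27 of 71, 38.0% against 19.5%. The median log2 fold change of the listed genes stayed near 0, at -0.08 in salt, -0.14 in mannitol and 0.07 in flg22.

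Of the other nitrate and anion transporters 6 rose and 3 fell of 13 tested in salt (69.2% against 41.9% of all genes), and 5 rose and 6 fell in mannitol (84.6% against 52.1%). NRT1.4, which stores nitrate in petioles, rose from 8.62, 7.74 and 9.39 CPM in mock to 143, 118 and 111 CPM in salt (3.87 ± 0.14, adjusted p = 1.38e-07). It also rose in mannitol, from a mean of 61.2 CPM in the control to 161 CPM (1.39 ± 0.12, adjusted p = 1.54e-06). The phloem loader NRT1.7 rose in mannitol by 1.699 ± 0.16 on the log2 scale (adjusted p = 8.13e-07). In salt it had 188, 99 and 73 counts against 2, 9 and 14 in mock, and it passed the filter on low counts there only with the help of the salt libraries in which it was high. NPF2.3, which exports nitrate from pericycle cells toward the xylem under salt, rose in salt from a mean of 4.64 to 23.3 CPM (2.44 ± 0.46, adjusted p = 0.00598). It fell by 0.42 ± 0.12 on the log2 scale in mannitol (adjusted p = 0.00801), from a mean of 47.8 CPM in the control to 35.9 CPM. The excretion transporter NAXT1 fell in mannitol from a mean of 52.4 to 6.51 CPM (-3.03 ± 0.26, adjusted p = 3.27e-05). NRT1.11, which moves nitrate between xylem and phloem in leaves, fell by 1.89 ± 0.29 on the log2 scale in salt (adjusted p = 0.000609) and fell by 2.53 ± 0.20 in mannitol (1.84e-07).

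All 3 tested ammonium transporter genes changed in both osmotic treatments, against 41.9% of all genes in salt and 52.1% in mannitol. AMT1;2 and AMT1;3 fell and AMT2;1 rose. The rise of AMT2;1 in salt was small, at 0.35 ± 0.12 on the log2 scale (adjusted p = 0.0488). AMT1;3, a root ammonium importer, fell from 117, 141 and 167 CPM in the mannitol control to 13.4, 11.9 and 12.1 CPM in mannitol (-3.52 ± 0.13, adjusted p = 2.38e-10), and had a mean of 124 CPM in mock and 36.8 CPM in salt. AMT1;2 fell in mannitol from a mean of 222 to 57.96 CPM (-1.95 ± 0.17, adjusted p = 2.06e-05). AMT2;1 was higher in all treatments and had the largest flg22 change among the 5 listed genes that passed the test, from a mean of 39.8 to 68.0 CPM (0.76 ± 0.11, adjusted p = 0.00653). The other listed genes that rose in flg22 were the regulators CBL1 (0.66 ± 0.15, adjusted p = 0.0440) and CPK32 (0.57 ± 0.09, 0.0117) and the molybdenum cofactor genes CNX2 (0.45 ± 0.10, 0.0349) and CNX1. The list had 0 calls in flg22 without flg22 replicate B, 1 without flg22 replicate C or mock replicate C and 2 without mock replicate A. CPK32 encodes a kinase that acts in nitrate signalling, and CNX proteins make the cofactor that nitrate reductase needs.

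Among assimilation enzymes 3 rose and 6 fell of 13 in salt, 69.2% against 41.9% of all genes, and 3 rose and 4 fell in mannitol, where 53.8% is near the 52.1% of all genes. ASN1, the dark- and starvation-induced asparagine synthetase, had 5, 1 and 3 counts in the mannitol control and 147, 130 and 137 CPM in mannitol. It passed the filter on low counts only through the mannitol libraries, and its fitted log2 fold change of 9.20 depends on those few control counts. In mock it had 102, 25.9 and 78.5 CPM, so that the untreated groups differed. The 12 genes of reductant and cofactor supply had 1 higher and 2 lower in salt (25% against 41.9% of all genes) and 2 higher and 5 lower in mannitol (58.3% against 52.1%), all under a log2 of 1 in size.

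Of the regulators of the nitrate response, 7 were higher and 12 lower of 30 in salt (63.3% against 41.9% of all genes) and 12 higher and 10 lower in mannitol (73.3% against 52.1%). NLP3, among the higher regulators in mannitol, passed the filter on low counts there only through the mannitol libraries. BT1 and BT2, nitrate-induced repressors of nitrate uptake genes, fell in salt by 2.90 ± 0.57 (adjusted p = 0.0117) and 2.05 ± 0.40 (0.00928) on the log2 scale. Mock replicate B held 119 CPM of BT1 against 486 and 416 in A and C. BT2 rose in mannitol, from 12.9, 19.2 and 9.24 CPM to 93.1, 60.8 and 76.4 CPM (2.46 ± 0.27, adjusted p = 0.000264). NIGT1.4, a repressor of NRT2 genes, fell in salt by 1.91 ± 0.17 on the log2 scale (adjusted p = 3.16e-05). Its mean was 112 CPM in mock and 18.7 CPM in the mannitol control. NLP8, known as the nitrate regulator of seed germination, rose in salt by 2.13 ± 0.26 (adjusted p = 0.000496) and in mannitol by 1.63 ± 0.15 (3.87e-06).

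**Figure D4:**
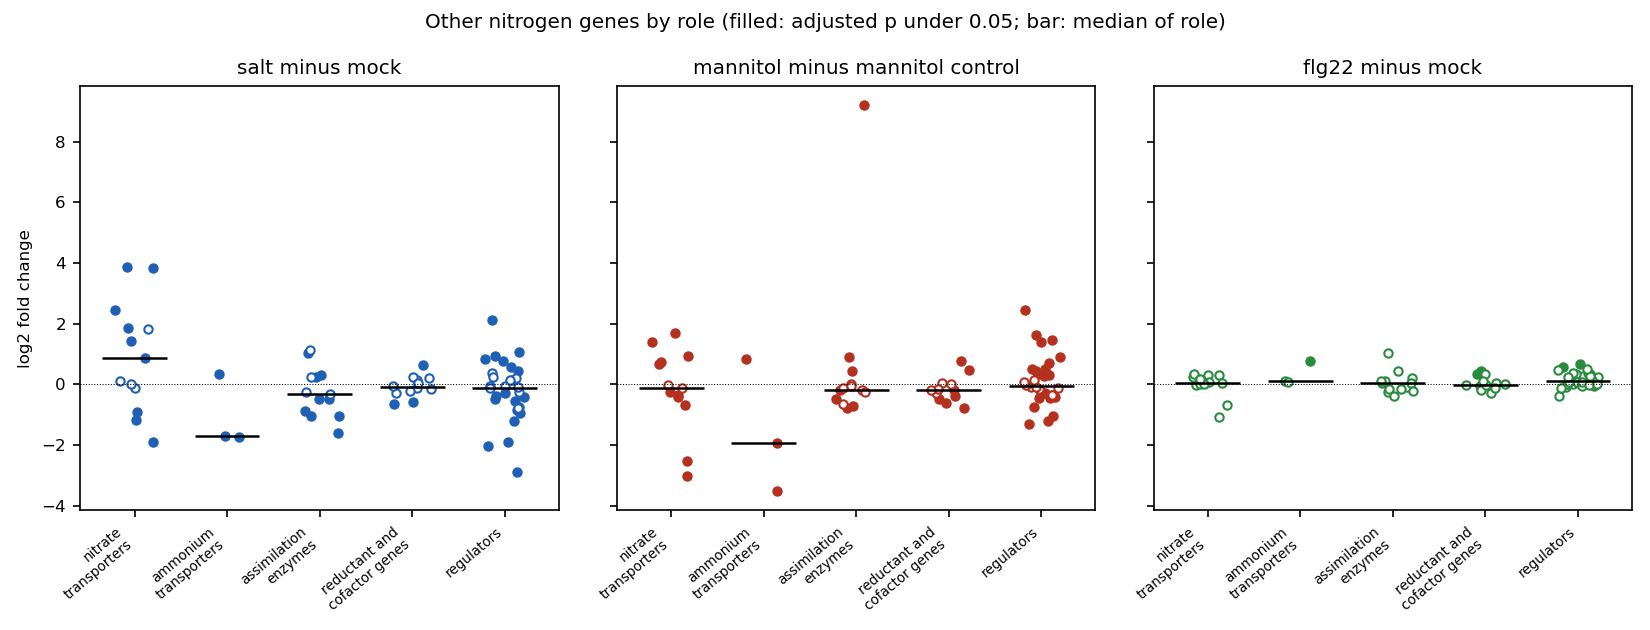
Log2 fold change of the other listed nitrogen genes by role in salt, mannitol and flg22, with 1 point per gene, filled for an adjusted p under 0.05, and a bar at the median of the role. ASN1 lies at 9.20 in mannitol, AMT1;3 at -3.52 in mannitol and NRT1.4 at 3.87 in salt, whereas in flg22 only 5 points are filled.

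Mock and the mannitol control, both untreated, differed in several of the nitrate genes. NRT1.5 was at 800 to 1183 CPM in mock and 391 to 476 CPM in the mannitol control, and NRT1.8 at 8.83 to 35.1 and 2.35 to 3.07 CPM. NIA1 was at 25.1 to 59.8 CPM in mock and 11.96 to 14.2 CPM in the mannitol control, and NRT3.1 at 192 to 209 and 138 to 157 CPM. NIR was at 163 to 242 and 141 to 159 CPM. These 5 genes were lower in every mannitol control library than in any mock library, as were 26.8% of 18927 genes that passed the filter in these libraries, while the groups overlapped for NRT2.1, NRT1.1 and NIA2. A fold change in salt and one in mannitol therefore start from different levels.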

How the data were processed

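The deposited file is a table of whole-number read counts per gene. The authors made these counts from nonstranded paired-end reads of polyadenylated RNA by trimming with Trimmomatic, mapping to Araport11, discarding duplicates with Picard and counting with HTSeq, without normalization. Versions and counting options are not given in the sources used here. Columns were matched to samples by name, and the columns of the second untreated group were taken as the mannitol control because the labels describe only 2 untreated groups. Unused columns numbered 0.

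Each comparison was fitted on the deposited counts of 3 against 3 libraries by the robust quasi-likelihood test of edgeR 4.0.16 under R 4.3.3, after TMM normalization and filterByExpr with a minimum count of 10, and p-values were adjusted by Benjamini-Hochberg over all genes tested. CPM was computed with TMM factors over all 15 libraries. Named genes were all members and, per comparison, up to 4 listed genes per direction with the largest change among those called at a mean of at least 5 CPM. CNX1, AT1G32440 and AT4G21670 were named after their values were seen, as were the values of a rule-named gene in comparisons other than the one that named it. The members and lists were chosen with earlier results of these data known. Alternatives were DESeq2 1.42.0 (test or size factors), other count filters, a fold limit, a block for the replicate letter, a single fit of all libraries and each library left out. Annotation and sequences came from RefSeq (TAIR10.1), read with Biopython 1.88, and plots were drawn with matplotlib 3.10.9. Chi-square per degree of freedom between replicates was 2.94 to 12.3, above sampling noise, so none was counted as a copy.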

Additional observations from a re-analysis of the deposited data

Results flagged for a closer look

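The responses to salt and to mannitol differed by the test of the difference itself (edgeR's quasi-likelihood test, 12 libraries, Benjamini-Hochberg adjustment) for 3 of the nitrate genes, NRT1.1 (1.54 on the log2 scale, salt response minus mannitol response), NRT1.5 (-1.19) and NRT1.8 (-4.41). Among the other nitrogen genes named for this comparison the difference was positive for the transporters NPF2.3 (2.88, adjusted p = 0.00198), NRT1.4 (2.47, 1.47e-06), CLCB (2.12, 6.15e-07) and NAXT1 (2.12, 0.000909). It was negative for ASN1 (-8.07, adjusted p = 0.000889, with 9 counts in all in the mannitol control), BT2 (-4.52, 0.000518), BT1 (-4.31, 0.00268) and NIGT1.4 (-1.56, 0.0011). CLCB, of the chloride channel family, shares 14.3% of its 100-base windows with other loci. For BT1, BT2, NIGT1.4 and ASN1 every mock library lay far above the mannitol control libraries. Every mock library lay far below them for NRT1.4 (means of 8.58 CPM in mock and 61.2 CPM in the mannitol control) and NPF2.3 (4.64 and 47.8 CPM). CLCB was also lower in every mock library. The responses of these genes therefore started from different levels. The differences between responses were not weighed further, since treatment, medium and control group cannot be told apart.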

How the results depend on the processing

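The calls for NRT1.1, NRT1.5, NRT2.1 and NRT3.1 in salt and for NRT1.5, NRT1.8, NRT2.1, NRT3.1, NIA1 and NIA2 in mannitol held under every alternative that could be run other than the fold limit, which NRT1.5, NRT3.1 and NIA2 missed in mannitol. A filter of at least 10 counts in every library removed NRT2.1, so that alternative gave no value for it. NRT2.1 passed the main filter in mannitol only through its control libraries. Of 421 alternative values of single members, 377 kept direction and call, 24 reversed, 11 gained a call and 9 lost it. With a fold limit, the members called in mannitol went from 7 to 3 and the listed nitrogen genes from 43 to 19 in salt, 50 to 14 in mannitol, 5 to 0 in flg22 and 27 to 14 in the difference of responses. The listed genes tested were 71 in salt and 71 in mannitol, and of all genes 17.4% and 16.4% passed that limit there. DESeq2's Wald test called 5 members in the difference of responses against 3. Leaving out 1 library at a time gave 4 to 7 members in salt, 6 to 8 in mannitol, 0 to 1 in flg22 (1 without flg22 replicate A, NRT3.1, or without mock replicate B, NIA2) and 2 to 5 in the difference, and 0 to 6 listed genes in flg22 (0 without flg22 replicate B).

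Same-lettered libraries did not deviate together (correlations 0.03, -0.05 and 0.09 in salt, 0.05, 0.04 and -0.07 in mannitol, -0.13, -0.25 and -0.05 in flg22). With the letter as a replicate block 6, 7, 0 and 3 members were called in salt, mannitol, flg22 and the difference, and 0 listed genes in flg22.

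Of the values that changed sign, none was a call in the full fit, where the largest in size was -0.26 (NIA1 in flg22). Over fits without 1 library, NRT1.1 in mannitol ranged from -0.21 (without mannitol replicate A) to 0.21. In flg22 NRT1.5 ranged from -0.085 to 0.20, NRT2.1 from -0.25 to 0.34, NIA1 from -0.48 to 0.18 and NIR from -0.27 to 0.020, the last bounds of NIA1 and NIR without mock replicate B. In the difference of responses NIA2 ranged from -0.15 to 0.29 and NIR from -0.12 to 0.17. The difference for NIA2 was -0.019 with DESeq2 size factors and -0.019 with DESeq2's Wald test, -0.0080 with no filter and -0.0096 with at least 10 counts in every library, against 0.00. The cause of these shifts was not tested.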
